A study of Mus musculus with 8 samples.

Results

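The genes described here are the clustered histone genes of the mouse, the 36 rows of the 20976 in the deposited table whose gene name begins with Hist1h, Hist2h, Hist3h or Hist4h. They comprise 5 genes for linker histone H1, 6 for H2A, 10 for H2B, 6 for H3 and 9 for H4. Of them, 29 lie on chromosome 13, 4 on chromosome 3, 2 on chromosome 11 and 1 on chromosome 6. The cells were muscle stem cells of Chd4LoxP/LoxP mice, sorted by flow cytometry and briefly grown in medium with bFGF and serum. Every library came from cells with the floxed gene that had received an adenovirus. In 4 libraries the virus carried Cre recombinase, which deletes exons 12 to 21 of Chd4, the ATPase gene of the NuRD chromatin remodelling complex, and in 4 it carried GFP. Each condition was replicated with 4 mice per the series' design text. There was no group with Cre and an unfloxed Chd4 gene. The sources used here give neither the age of the mice nor the time after infection.

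Core histones H2A, H2B, H3 and H4 form the protein spool around which DNA is wound, and H1 binds the linker DNA between spools. Most genes of these clusters are transcribed strongly in S phase, when new chromatin is assembled. Their messenger RNAs as a rule have no poly(A) tail and end shortly after a conserved stem-loop that is bound by SLBP, the stem-loop binding protein. Some of the genes can also be read through the stem-loop to a downstream polyadenylation site, a form known from differentiating and non-dividing cells. The sources used here do not say whether the libraries were selected for poly(A) RNA, and a library so selected would hold mainly the second form.

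The stem-loop was searched for in the GENCODE M21 transcripts, to see how far the annotation runs on past it. An annotated end does not show which form the libraries held. A 16-base core was found in 30 of the 36 genes, and in 0.038% of the other genes of the table. The sequences below come from those transcripts (build GRCm38, transcript strand, 5′ to 3′, written as DNA). Capitals mark the core, and small letters the 5 bases on either side. The first 5 are from members that passed the filter on low values, and the last 3 from members whose annotated transcript ends close behind the stem-loop.
Hist1h1c: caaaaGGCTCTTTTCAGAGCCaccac
Hist3h2a: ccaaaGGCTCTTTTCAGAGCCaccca
Hist1h2ac: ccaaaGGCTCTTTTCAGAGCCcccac
Hist2h3c2: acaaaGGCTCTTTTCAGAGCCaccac
Hist1h4i: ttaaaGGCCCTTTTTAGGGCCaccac
Hist1h2bf: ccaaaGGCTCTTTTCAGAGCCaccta
Hist1h3g: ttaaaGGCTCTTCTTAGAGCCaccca
Hist1h4h: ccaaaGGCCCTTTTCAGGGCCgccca

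The core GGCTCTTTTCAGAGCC was shared by 17 members of classes H1, H2A, H2B and H3, and the core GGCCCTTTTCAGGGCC by 4 members of class H4. The core was not found in the annotated transcripts of 6 members, among them Hist1h2bc and Hist2h2be, which says only that these letters are not there. The transcript ran on for more than 100 bases past the core in 21 members, here called extended. It reached 840 bases past it in Hist1h1c, 1643 in Hist3h2a and 2010 in Hist1h2ac. In 9 members it ended within 100 bases, for instance 29 bases past the core in Hist1h2bf.

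A gene was tested when at least 4 of the 8 libraries reached 1 CPM (the gene's normalised reads relative to the library total, on the counts-per-million scale). Of the 36 members 12 passed, against 12910 genes of the whole table. They were 3 of 5 H1 genes, 3 of 6 H2A genes, 3 of 10 H2B genes, 2 of 6 H3 genes and 1 of 9 H4 genes. No member passed through the Cre libraries alone, though 6 of the 12 had fewer GFP than Cre libraries at 1 CPM. Of the 21 extended members 9 passed, of the 6 with no core found 3 passed, and of the 9 with a short end 0 passed. Per length, the median level was 0.398 CPM per kb in the extended members, with a range from 0.0461 to 115. It was 0.241 in those with a short end, with a range from 0.129 to 0.972, so that the ranges of both kinds overlapped and among members with a core only extended ones stood above 0.972. Sequence shared with other genes differed as well. A median of 54.0% of the 50-base windows of the short members, and 24.6% of those of the extended members, also occurred in another annotated gene, and its part in the levels was not tested.

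**Figure D1:**
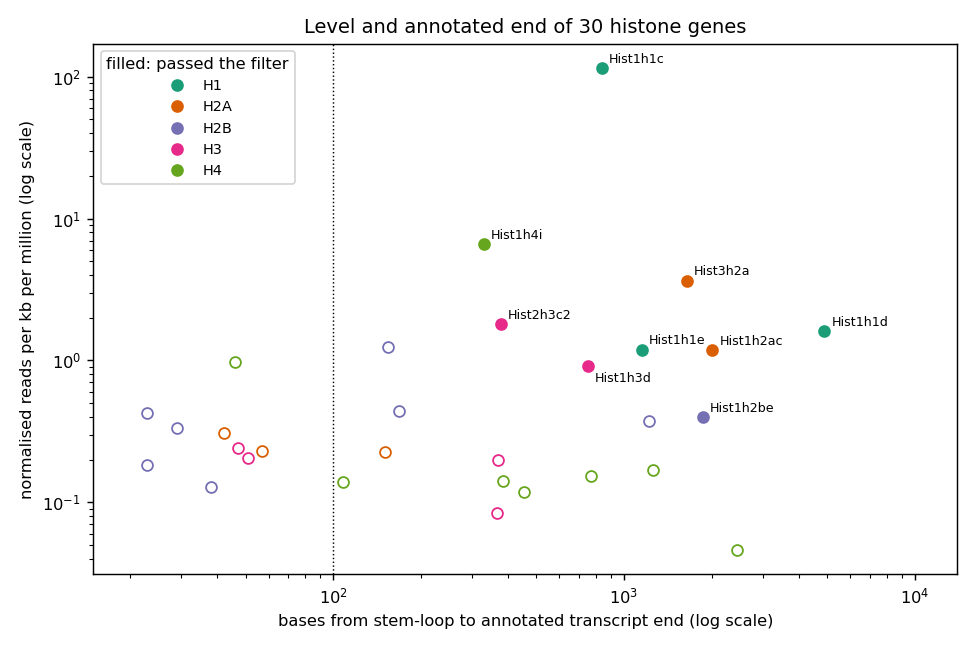
Level of 30 histone genes against the length of annotated transcript behind the stem-loop. The x axis gives the bases from the stem-loop core to the annotated transcript end and the y axis the mean CPM per kb of transcript over 8 libraries, both on log scales, with 1 point per gene coloured by class, filled where the gene passed the filter, and a dotted line at 100 bases. All filled points lie to the right of the line, with Hist1h1c at 115 far above the rest.

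A single gene held most of the signal. Hist1h1c, which encodes linker histone H1f2 in current nomenclature, took 57.4 to 71.2% of the normalised reads of all 36 members in the 8 libraries, and 89.1 to 95.3% of those of its class. Hist1h2bc, an H2B gene, took 80.0 to 91.1% of its class, and Hist1h4i 67.6 to 83.7% of the H4 class. The H2A class was led by Hist3h2a with 55.1 to 83.2%, and the H3 class by Hist2h3c2 with 33.7 to 69.8%, except in GFP 3, where Hist1h3d held more, at 41.0%. These are shares of reads and are not corrected for transcript length. Per length, the order of the leading genes was Hist1h1c at 115, Hist1h2bc at 37.6, Hist1h4i at 6.61 and Hist3h2a at 3.65 CPM per kb.

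The scaled totals of the libraries lay between 27897860 and 28876348, and the original depth, estimated from gaps and doublings among the low values, between 23.3 and 38.0 M reads. As a check of the labels, Chd4 had between 3686 and 5480 normalised reads with Cre and between 15904 and 20121 with GFP. The myoblast markers Pax7, Myf5, Myod1, Des, Cdh15 and Itga7 were all present, with means over the 8 libraries between 691 and 38290. Summed over these 6 genes the level was 3206.7 to 3733.0 CPM in Cre and 3116.2 to 3437.3 in GFP. The sum covers opposite changes in the paired model (limma). Myf5 fell (log2 change -0.57, adjusted p = 0.000124), as did Pax7 (-0.14, 0.0354), while Myod1 (0.20, 0.0425) and Des (0.17, 0.0447) rose. Myf5 also differed between numbers, at 1262 reads in Cre 4 and 1816 in GFP 4 against 298 to 575 in the other libraries. Markers of other cell types had low sums, apart from the 4 pericyte and smooth muscle genes, whose sum of 601 to 1397.5 CPM was almost all Acta2, an actin that cultured myoblasts also express. The sum of 4 endothelial genes was 9.62 to 14.3 CPM in Cre and 4.98 to 6.52 in GFP, and every pair was higher in Cre. Of its genes, Tek had 114 to 313 normalised reads in Cre and 31 to 115 in GFP and rose in the paired model (log2 change 1.46, adjusted p = 3.28e-05, limma). Kdr had 14 to 46 against 2 to 14 and Pecam1 44 to 130 against 40 to 102, both higher in 4 of 4 pairs, and Cdh5 had 5 to 9 against 1 to 8. The 2 fibroblast genes with a row summed to 3.33 to 5.41 CPM. For immune cells only Cd68 was analysed, with 82 to 396 reads in Cre and 28 to 243 in GFP. Cd68 was higher in 4 of 4 pairs and rose in the paired model (log2 change 1.00, adjusted p = 0.000369, limma). The part of endothelial and immune cells in the values below was not tested.

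The comparison of Cre with GFP asks how the histone transcripts changed when Chd4 was deleted. In the paired model, in which each Cre library is set against the GFP library of the same number, 7 of 12 tested members rose, by 1.34- to 1.78-fold, and 0 fell (limma, Benjamini-Hochberg adjusted p under 0.05 over all genes). The members that rose were Hist1h1c and Hist1h1e of class H1, Hist1h2ac, Hist1h2al and Hist3h2a of class H2A, Hist1h2bc of class H2B and Hist2h3c2 of class H3. The same model called 22.2% of all tested genes higher and 21.7% lower, 43.9% in all, so a call in it was common. Of the 12 members 7 were higher in Cre in 4 of 4 pairs, against 27.9% of all genes, and 0 were lower in 4 of 4, against 27.6%. The main model without pairing called 0 members in either direction, against 0.837% of all genes higher and 0.248% lower, and voom without pairing also called 0. At an unadjusted p under 0.05 it took 1 member, Hist3h2a, which was higher, against 16.7% of all genes in either direction and 7.41% higher. Groups overlapped for all 12 members, while 4.41% of all genes lay without overlap higher in Cre and 6.17% lower. The median log2 change of the tested members was 0.56, beside -0.00 over all tested genes. Changes are given on the log2(value + 1) scale, which understates those of low genes.

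Both models saw the same differences, and what separated them was the spread between numbers. For all 12 tested members the means of the same-numbered libraries spanned more than Cre and GFP differed. That span was 0.77 to 3.90 on the log2 scale. Number 4 had the lowest pair mean for 12 of 12 members, and number 2 the highest for 10 of 12. In bulk RNA a lower level can come from fewer cells that express the gene or from less RNA per cell, and these cannot be told apart here. The labels do not say that equal numbers share a mouse, and the pairing rests on the values themselves.

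Among the linker histone genes, Hist1h1c had 5034, 8732, 7735 and 1977 normalised reads in Cre 1 to 4, against 2748, 7666, 5845 and 989 in GFP 1 to 4. Each Cre library was above the GFP library of its number, yet GFP 2 and 3 were above Cre 1 and 4, so that the groups overlapped. Its mean with Cre was 5869.5 ± 3028.9 (SD, n = 4), and with GFP 4312 ± 3004.9 (SD, n = 4). The log2 change was 0.62, with an SE of 0.11 paired (adjusted p = 0.00129, limma) and of 0.70 unpaired (adjusted p = 0.720). In fold terms Cre was 1.53 times GFP, while within GFP the highest library was 7.75 times the lowest. The gene (chromosome 13, 23738808 to 23740367, plus strand, build GRCm38) shared 8.54% of its 50-base windows with another gene, most with Hist1h1d and Hist1h1e.

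Hist1h1e, another linker histone gene (chromosome 13, 23620629 to 23622558, minus strand), was measured at 43, 104, 118 and 27 reads in Cre 1 to 4 and at 25, 120, 76 and 10 in GFP 1 to 4. It was higher in Cre for 3 of 4 numbers and lower for number 2, with a log2 change of 0.63 (paired SE 0.23, adjusted p = 0.0481, limma). The call was lost in 7 of 11 alternatives of the paired model, among them voom (adjusted p = 0.183) and the fits that drop pair 1, 3 or 4 (the highest adjusted p was 0.192). The annotated exons of Hist1h1e and Hist1h2be share 496 bases on the same strand, so reads there cannot be assigned to either gene alone.

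Hist1h1d had 239, 510, 591 and 56 reads in Cre 1 to 4 and 111, 771, 380 and 30 in GFP 1 to 4. Within GFP the highest library was 25.7 times the lowest, a wider span than for any other tested member. The log2 change was 0.50 and missed the paired threshold (adjusted p = 0.0888, limma), with number 2 lower in Cre by 0.60 and the others higher by 0.64 to 1.10. Without pair 2 the change was 0.87 and passed (adjusted p = 0.00103). The annotated transcript of Hist1h1d is 7425 bases long, which sets its level per kb low. The H1 genes that did not pass the filter, Hist1h1a and Hist1h1b, averaged 11.5 and 16.4 reads over the 8 libraries.

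**Figure D2:**
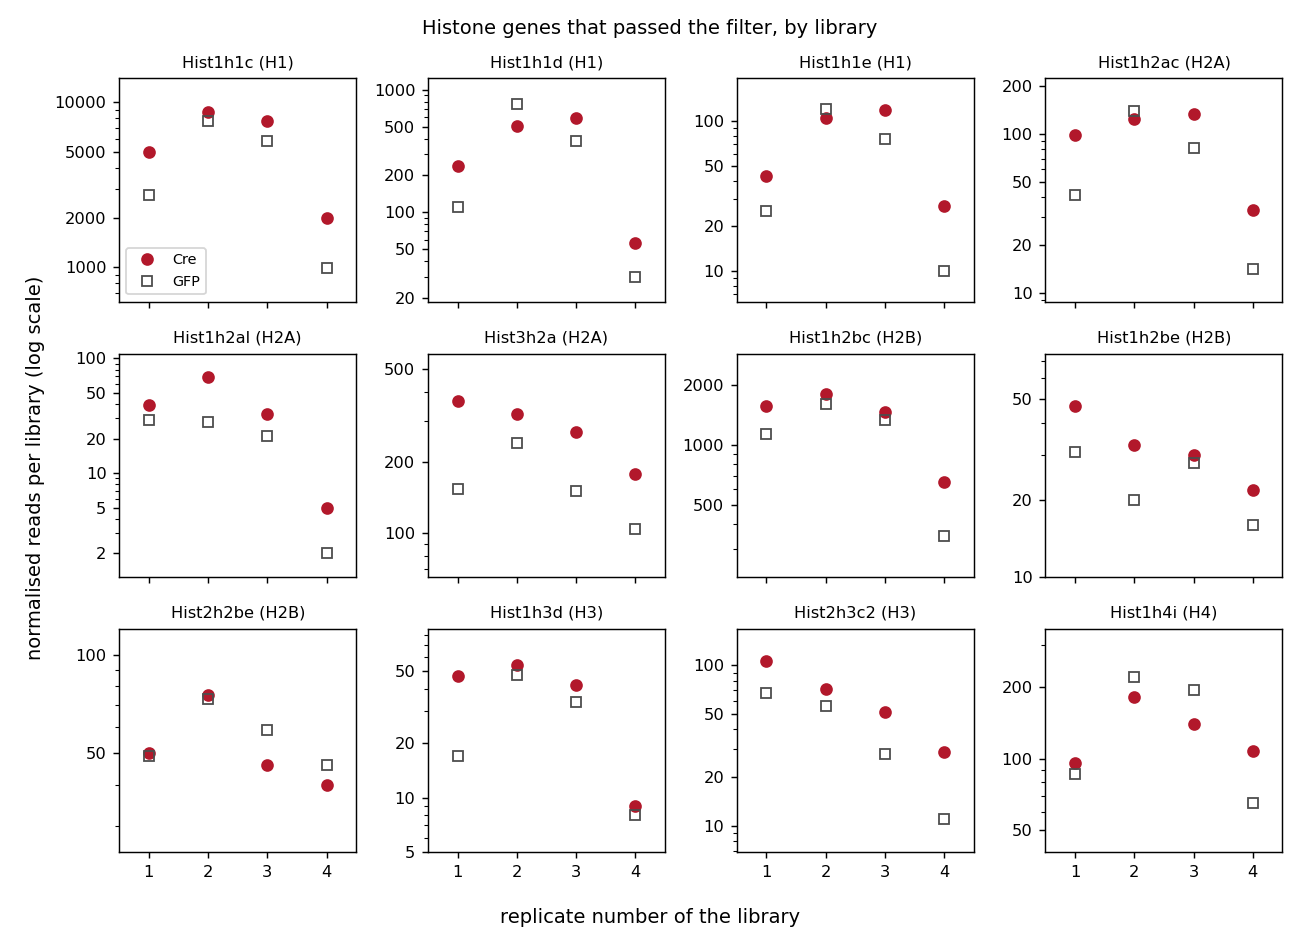
Normalised reads of the 12 tested histone genes in each library. The x axis gives the replicate number and the y axis the normalised reads on a log scale that differs between panels, with filled circles for Cre and open squares for GFP. In most panels both symbols move together from number to number and number 4 is low, as for Hist1h1c with 1977 in Cre 4 and 989 in GFP 4.

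Among the H2A genes, Hist3h2a was higher in Cre for every number. It stood at 363, 322, 268 and 178 reads in Cre 1 to 4 and at 154, 241, 151 and 104 in GFP 1 to 4. All Cre libraries except number 4 were above every GFP library. The log2 change was 0.81, with an SE of 0.13 paired (adjusted p = 0.000537, limma) and of 0.30 unpaired (adjusted p = 0.237), with 4 of 4 pairs higher. Hist3h2a kept its call in 12 of 12 alternatives of the paired model. The gene (chromosome 11, 58954685 to 58956830, plus strand) lies within the annotated span of Trim17 on the same strand, with which it shares 708 exonic bases. Trim17 was counted at 7 to 16 reads in Cre and 2 to 10 in GFP, far below Hist3h2a.

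Hist1h2ac (chromosome 13, 23681467 to 23683948, minus strand) was measured at 99, 125, 133 and 33 reads in Cre 1 to 4 and at 41, 140, 81 and 14 in GFP 1 to 4. The log2 change was 0.74 (paired SE 0.22, adjusted p = 0.0203, limma), with number 2 lower in Cre by 0.16. The call was lost with voom (adjusted p = 0.0765) and in the fits that drop pair 1, 3 or 4 (the highest adjusted p was 0.0805). Hist1h2al, which the table lists as a processed pseudogene outside the main cluster (chromosome 13, 51202727 to 51203065, minus strand), stood at 39, 69, 33 and 5 reads in Cre 1 to 4 and at 29, 28, 21 and 2 in GFP 1 to 4. Its log2 change was 0.83 (paired adjusted p = 0.0224, limma; 0.122 without pair 2 and 0.0594 without pair 3). Its transcript is 99.4% identical to those of the H2A genes Hist2h2aa1 and Hist2h2aa2, so its reads may belong to any of them.

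Hist1h2bc, the leading H2B gene, lies beside Hist1h2ac in the opposite direction (chromosome 13, 23684199 to 23692908, plus strand), with 250 bases between their annotated starts. It stood at 1572, 1792, 1462 and 654 reads in Cre 1 to 4 and at 1136, 1599, 1327 and 349 in GFP 1 to 4. Cre was above GFP for every number, least for numbers 2 and 3. The log2 change was 0.42, the smallest among the members that rose (paired SE 0.11, adjusted p = 0.00962, limma), and the call held in 12 of 12 alternatives of the paired model. Of its 50-base windows 30.1% occurred in other H2B genes, and its transcript matched those of Hist1h2bq and Hist1h2br at 99.5% over the shorter length.

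The other tested H2B genes were not called. Hist1h2be stood at 47, 33, 30 and 22 reads in Cre 1 to 4 and at 31, 20, 28 and 16 in GFP 1 to 4, with a log2 change of 0.45 (paired adjusted p = 0.112, limma; 95% interval -0.02 to 0.93). Hist2h2be, on chromosome 3 at 96221119 to 96223738, plus strand, was the tested member with a value below 0. It had 50, 75, 46 and 40 reads in Cre 1 to 4 and 49, 73, 59 and 46 in GFP 1 to 4, a log2 change of -0.12 (paired adjusted p = 0.576, limma; 95% interval -0.47 to 0.23). None of its 50-base windows occurred in another annotated gene, and its groups covered nearly the same range.

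Of the H3 genes, Hist2h3c2 (chromosome 3, 96238108 to 96239127, minus strand) stood at 106, 71, 51 and 29 reads in Cre 1 to 4 and at 67, 56, 28 and 11 in GFP 1 to 4. It was higher in Cre for every number, with a log2 change of 0.79 (paired SE 0.20, adjusted p = 0.0088, limma; unpaired adjusted p = 0.570), and kept its call in 11 of 11 alternatives of the paired model. Of its 50-base windows 63.5% occurred in other genes, including Hist2h3c1 and Hist2h3b, so the value may cover several of these copies. Hist1h3d stood at 47, 54, 42 and 9 reads in Cre 1 to 4 and at 17, 48, 34 and 8 in GFP 1 to 4. Its log2 change of 0.51 was not called (paired adjusted p = 0.143, limma), with number 1 higher in Cre by 1.42 and the others by 0.15 to 0.30.

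The single tested H4 gene, Hist1h4i (chromosome 13, 22040636 to 22041362, minus strand), was not called. It stood at 96, 182, 140 and 108 reads in Cre 1 to 4 and at 86, 220, 195 and 65 in GFP 1 to 4. Numbers 1 and 4 were higher in Cre and numbers 2 and 3 lower. The log2 change was 0.03 (paired adjusted p = 0.898, limma), with a 95% interval from -0.36 to 0.43. That interval includes the change of 0.42 found for Hist1h2bc, and no test of a difference between members was made.

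**Figure D3:**
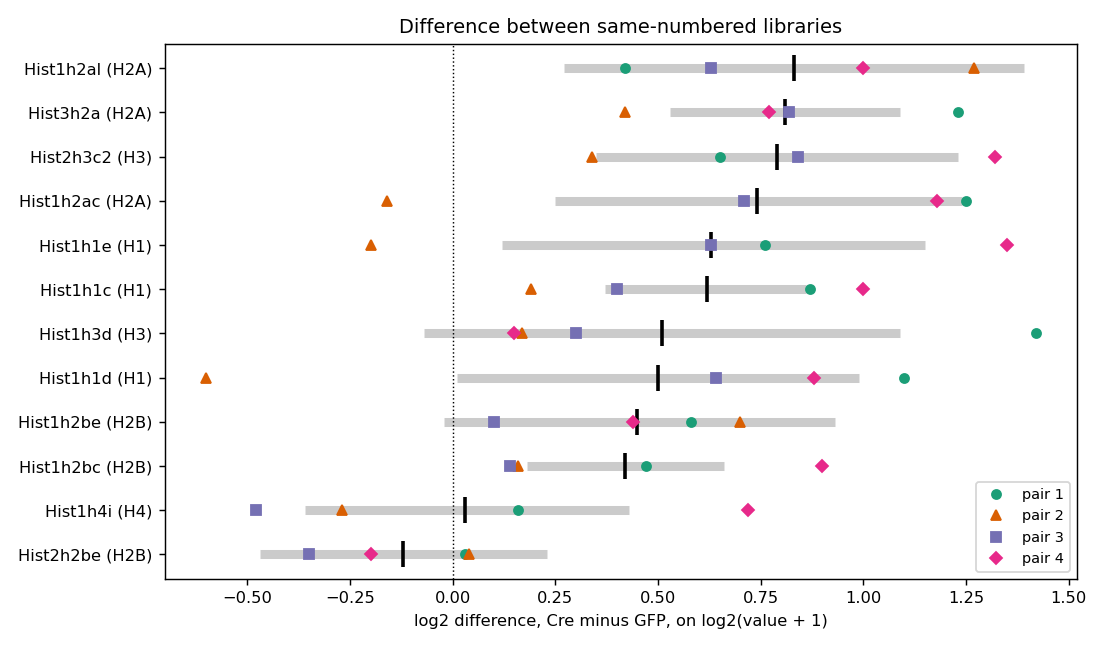
Difference between same-numbered libraries for the 12 tested histone genes. The x axis gives the log2 difference of Cre minus GFP, coloured symbols the 4 pairs, black ticks the mean and grey bars the 95% interval of the paired model. Hist3h2a lies above 0 in every pair, from 0.42 to 1.23, while pair 2 lies below 0 for Hist1h1d, Hist1h1e, Hist1h2ac and Hist1h4i.

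The 24 members that did not pass the filter averaged between 2.12 and 21.8 reads over the 8 libraries, and 8 of them were listed at 0 in at least 1 library. They were 2 H1, 3 H2A, 7 H2B, 4 H3 and 8 H4 genes. The Cre mean was above the GFP mean for 12, below it for 11 and equal for 1. Summed over all 24, they reached 5.27, 6.96, 7.46 and 3.09 CPM in Cre 1 to 4 and 3.48, 8.82, 6.53 and 2.81 in GFP 1 to 4. The ranges of these sums overlapped, and the ratio of Cre to GFP lay on either side of 1, between 0.789 and 1.52. With the filter removed, the paired model called 0 of the 24 in either direction. Hist1h4h, second in its class, had 26, 21, 5 and 5 reads in Cre 1 to 4 and 18, 13, 12 and 4 in GFP 1 to 4, with number 3 lower in Cre and the others higher. Hist1h4c was lower in Cre in 4 of 4 pairs, at 0 to 3 reads against 1 to 8. Hist1h1a and Hist3h2ba, named after their values were seen, were higher in 4 of 4 pairs, at 8 to 21 against 1 to 20 and at 8 to 10 against 3 to 7 reads.

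Near-identical copies limited how far single genes could be told apart. By the limit of 98% identity over the shorter transcript, 19 of 36 members had a match among annotated genes. For Hist1h1e and Hist1h2ac the match was a short predicted gene at the same place. The 7 members that rose were 4 with such a match, Hist1h1e, Hist1h2ac, Hist1h2al and Hist1h2bc, and 3 without, Hist1h1c, Hist3h2a and Hist2h3c2. This split does not separate ambiguous from unique genes. Among the 3 without a match, Hist2h3c2 shared 63.5% of its 50-base windows with other genes and Hist1h1c 8.54%. The 4 with a match ranged from 14.1% in Hist1h2ac to 67.6% in Hist1h2al. GENCODE M21 names 70 genes by this naming rule, and the deposited table has rows under such a name for 36. By class these are 5 of 6 H1 genes, 6 of 20 H2A, 10 of 19 H2B, 6 of 12 H3 and 9 of 13 H4. The others could not be analysed under this rule, and the class sums do not include them.

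Summing by class absorbs reads moving between copies only where both copies are members. The near-identical matches of the H2B members, such as Hist1h2bq for Hist1h2bc, were all outside the members. So were Hist2h2aa1 and Hist2h2aa2, which match Hist1h2al. The H1 sum reached 187, 325, 299 and 72.0 CPM in Cre 1 to 4 and 102, 308, 223 and 36.9 in GFP 1 to 4. The ratio of Cre to GFP was 1.84, 1.05, 1.34 and 1.95 for numbers 1 to 4. For class H2A the ratios were 2.19, 1.16, 1.70 and 1.80, for H2B 1.39, 1.06, 1.11 and 1.67, and for H3 1.73, 1.07, 1.33 and 1.51. Each of these classes was thus nearest to equal in number 2. The H4 sum had ratios of 1.18, 0.878, 0.682 and 1.39, with a geometric mean of 0.996. Leaving out members with a near-identical match, the H2B sum fell to 4 genes. Its mean log2 difference went from 0.36 to -0.07, since Hist1h2bc is among those left out. The H3 sum was then Hist2h3c2 alone, itself sharing sequence with other genes, and its difference went from 0.47 to 0.80. Sums are given as values with no test.

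The order of the numbers was not that of S phase genes. Summed over 26 S phase genes, the level was 1188.1, 1862, 2139.1 and 2367.6 CPM in Cre 1 to 4 and 2284.3, 2857.9, 3338 and 4003.7 in GFP 1 to 4. Number 4 was thus the highest for S phase genes in both groups and the lowest for the sum of each of the 5 histone classes in both groups. Cre was lower for S phase genes in every pair, with ratios from 0.520 to 0.652, where the histone sum over all members had ratios from 1.06 to 1.83. Xist, the RNA of the inactive X chromosome, was at 40670 to 49984 reads in numbers 1 and 4 and at 2 to 12 in numbers 2 and 3, so the numbers with the lower Hist1h1c levels were also those with Xist. Its part in the histone values was not tested.

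**Figure D4:**
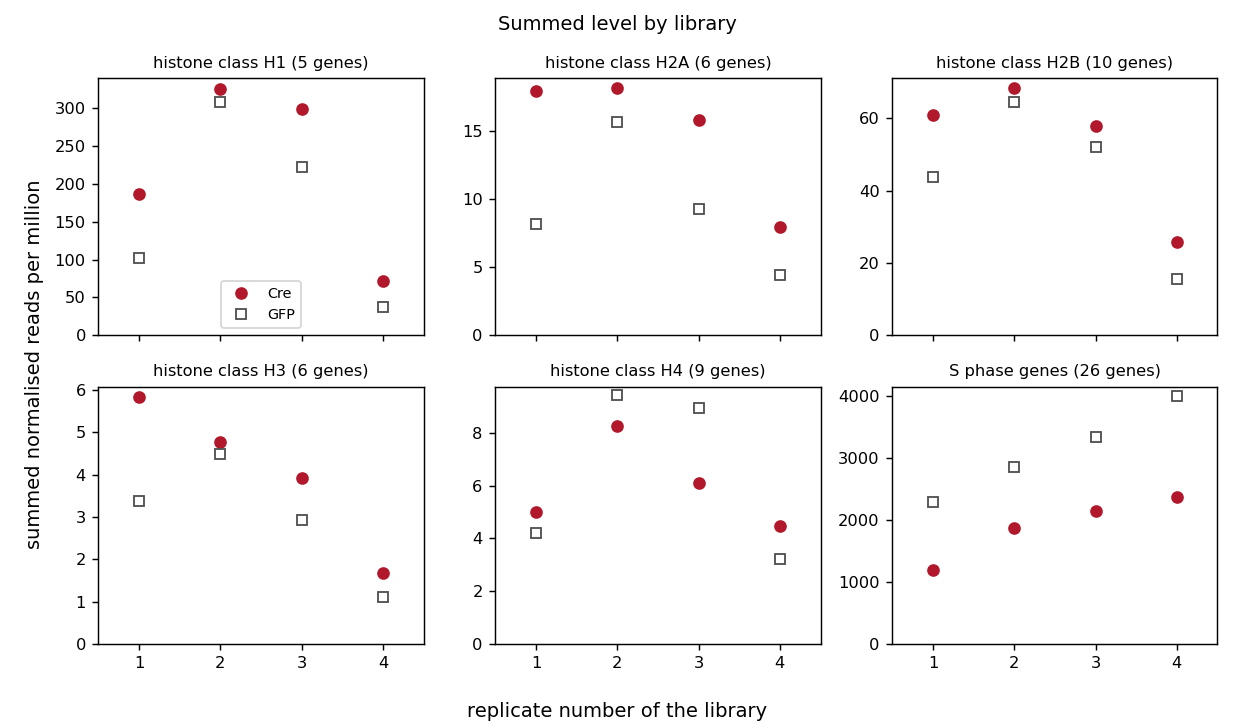
Summed level of each histone class and of 26 S phase genes by library. The x axis gives the replicate number and the y axis the summed CPM from 0, with filled circles for Cre and open squares for GFP. The S phase sum is higher in GFP for every number and highest in number 4 at 4003.7, where the H1 sum is lowest at 36.9.

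Of 17 tested genes that make and handle histone mRNA, 10 fell, 0 rose and 7 were not called in the paired model, beside 21.7% of all genes called lower, and the median log2 change was -0.20. Eri1, the exonuclease that degrades histone mRNA after replication, was at 1281, 1553, 1719 and 1674 reads in Cre 1 to 4 and at 1792, 1933, 2091 and 2269 in GFP 1 to 4, without overlap (log2 change -0.38, paired adjusted p = 0.000214, limma). Casp8ap2, or FLASH, which joins the 3′ end processing complex, fell by 0.41 on the log2 scale, the cleavage factor subunits Cpsf2 by 0.23 and Cstf2 by 0.21. Slbp, whose protein binds the stem-loops printed above, stood at 794, 756, 898 and 911 in Cre 1 to 4 and at 942, 855, 961 and 1248 in GFP 1 to 4 (log2 change -0.24, paired adjusted p = 0.0124, limma). Npat, the coactivator of histone gene transcription, fell by 0.21 (paired adjusted p = 0.0101, limma). Without pairing 0 of the 17 passed in limma or voom, with 4 at an unadjusted p under 0.05.

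Histone genes with names outside the Hist1h to Hist4h pattern, listed here as replication-independent variants, split in both directions. One of them, H2afj (chromosome 6, 136808244 to 136810074), lies near the member Hist4h4 (136801553 to 136804415). Of 11 tested, 2 rose and 5 fell in the paired model, beside 22.2% and 21.7% of all genes. Those that rose were H3f3b, a gene for the replacement histone H3.3, by 0.27 (paired adjusted p = 0.000954, limma), and the H2A variant gene H2afj by 0.30. Cenpa, the centromeric H3, fell by 0.62, the DNA damage variant H2afx by 0.41 and the macroH2A gene H2afy by 0.26. The linker histone gene H1f0, known from cells that leave the cycle, was at 3300, 4421, 4688 and 2847 in Cre 1 to 4 and 2269, 4268, 4335 and 2716 in GFP 1 to 4, and its log2 change of 0.19 was not called (paired adjusted p = 0.0559, limma). H2afj and H1f0 were chosen for naming after their values were seen. Without pairing 0 of the 11 were called in limma or voom, and 1 was at an unadjusted p under 0.05.

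With pairing, 13 of 22 histone chaperone genes fell and 0 rose, beside 21.7% of all genes called lower. Chaf1b, a subunit of the CAF-1 complex that deposits new H3 and H4 at replication forks, was at 367, 495, 605 and 668 in Cre 1 to 4 and at 875, 924, 1192 and 1169 in GFP 1 to 4, without overlap (log2 change -0.98, paired adjusted p = 1.02e-05, limma). Nasp, a chaperone of H3 and H4, fell by 0.51, Hjurp, the chaperone of Cenpa, by 0.55, and the FACT subunit Ssrp1 by 0.40. Of the 26 S phase genes 25 fell, with a median of -0.72. Those with the smallest paired p were the replicative helicase genes Mcm4, Mcm3, Mcm5 and Mcm2, with log2 changes of -0.59, -0.86, -0.84 and -0.63, and other genes of the list, such as Cdc6 with -1.14 (named after its values were seen), fell more. Without pairing 0 genes of either list passed in limma or voom, with 6 chaperone and 18 S phase genes at an unadjusted p under 0.05. The clustered histone genes thus had a positive median change beside negative medians in these lists, and the difference between lists was not tested.

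**Figure D5:**
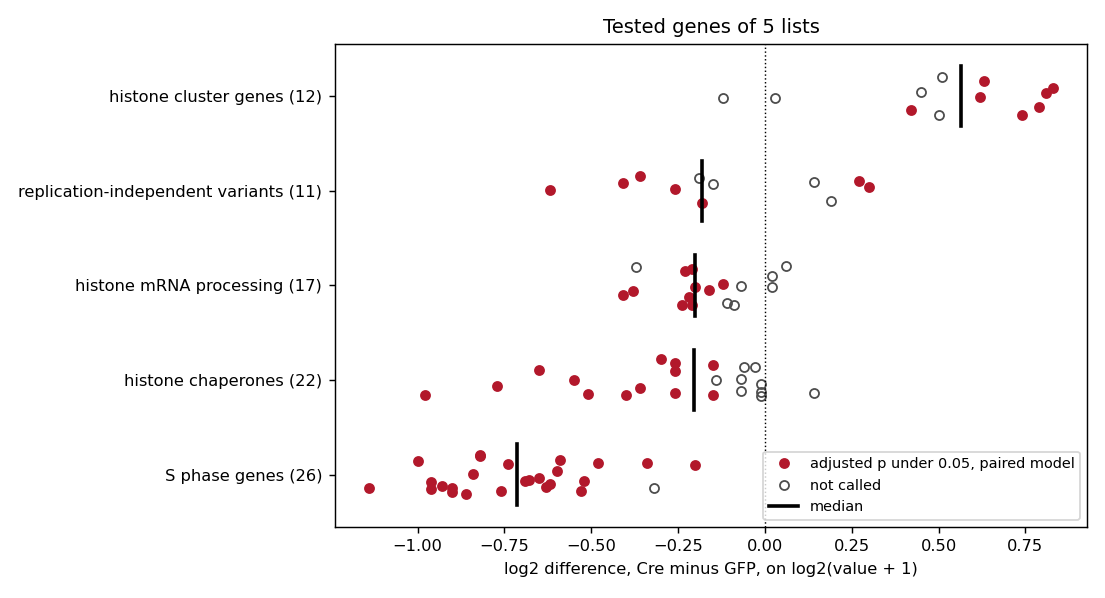
Log2 differences of the tested genes of 5 lists. The x axis gives the log2 difference of Cre minus GFP, with 1 point per gene, filled where the paired model called it, and black bars for the list medians. The medians are 0.56 for the clustered histone genes and -0.72 for the S phase genes.

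Promoters were compared because Hist1h2ac and Hist1h2bc, which share the stretch between them, both rose. RefSeq promoter windows (GRCm38.p6) were matched for 31 of 36 members by current or older symbol, and not for Hist1h2bc, Hist1h2al, Hist1h3f, Hist2h2be and Hist2h4, which are not in the motif counts, and the 250 bases before the start were searched on both strands. The first is that of Hist1h1c, chr13:23738557-23738806, plus strand, with the H1 box (AAACACA) and the CCAAT box (CCAAT) in capitals. The second is that of Hist1h2ac, chr13:23683960-23684209, minus strand, which covers most of the stretch up to Hist1h2bc, with the octamer (ATTTGCAT), CCAAT and TATAAA in capitals. The third is that of Hist3h2a, chr11:58954435-58954684, plus strand, with the octamer and CCAAT in capitals. Matches on the other strand appear as their reverse complements, ATGCAAAT and ATTGG.
Hist1h1c: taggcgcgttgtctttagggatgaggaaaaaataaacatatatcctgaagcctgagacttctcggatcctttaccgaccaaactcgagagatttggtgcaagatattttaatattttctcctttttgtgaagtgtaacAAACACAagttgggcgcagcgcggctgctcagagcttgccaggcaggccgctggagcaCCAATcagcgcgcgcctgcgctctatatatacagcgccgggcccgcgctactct
Hist1h2ac: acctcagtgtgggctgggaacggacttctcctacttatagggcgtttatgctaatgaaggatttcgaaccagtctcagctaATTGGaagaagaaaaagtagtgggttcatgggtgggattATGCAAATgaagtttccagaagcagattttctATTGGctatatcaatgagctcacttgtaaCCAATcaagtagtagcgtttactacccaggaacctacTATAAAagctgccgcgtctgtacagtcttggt
Hist3h2a: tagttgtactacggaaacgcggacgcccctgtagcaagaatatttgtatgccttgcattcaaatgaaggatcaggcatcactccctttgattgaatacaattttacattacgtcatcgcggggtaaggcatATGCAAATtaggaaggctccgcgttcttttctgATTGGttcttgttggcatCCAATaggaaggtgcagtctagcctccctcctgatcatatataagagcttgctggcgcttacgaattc

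The H1 box began 112 bases and the CCAAT box 54 bases before the start of Hist1h1c. In Hist1h2ac the octamer began 130 bases before the start, and in Hist3h2a 119 bases, both on the other strand. The printed matches do not overlap each other. Over all members the H1 box was found in 4 of 5 H1 promoters and in 0 of the other classes, and in 6.24% of 32819 promoter windows of other genes. The octamer was found in 7 of 31 members, 4 of class H2A and 3 of class H2B, against 1.58% of other windows. CCAAT was found in 25 of 31 members against 33.8%, and TATAAA in 17 against 12.3%. These are matches of letters and not measured binding. Hist1h4i, which was not called, held TATAAA but no CCAAT in its window. Hist2h3c2, which rose, held none of these motifs before its annotated start, though CCAAT occurs shortly past that start, outside the searched stretch. Hist1h1d, Hist1h3d and Hist1h2be, which were not called, held CCAAT. A link between motifs and calls was not tested.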

How the data were processed

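RNA of 8 libraries was measured, 4 with Cre and 4 with GFP adenovirus. The submitters' processing notes name STAR 2.5.3a, featureCounts 1.5.3 (Subread), DESeq and the builds mm10 and GRCm38. The sources used here give no order, settings, annotation release, strand use or treatment of reads with several matches. The deposited unit is a score: whole numbers scaled between libraries and rounded, as low values are missing or doubled at regular steps (multipliers 0.741 to 1.20, estimated from values up to 300). No count model was therefore run, and limma was used on log2(value + 1), with genes at 1 CPM in at least 4 libraries and an intensity trend (limma 3.58.1, R 4.3.3; Python 3.11.15, pandas 2.3.3, scipy 1.17.1). Two-sided p-values were corrected over 12910 genes (Benjamini-Hochberg, threshold 0.05). The fit was tested on simulated data, whose spread around the pair means was set and not taken from these libraries. Without pairing it recovered 0% of genes changed 1.5-fold and 46.2% of those changed 2-fold. With the replicate block it recovered 89.6% and 100%, with 8 false calls among 197.

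Groups and numbers came from the sample titles. The paired model adds the replicate number as a block. The labels do not state what a number marks, but a library's deviations from its group mean had correlations of 0.82 to 0.908 with those of the library of equal number, and of -0.597 to 0.477 with other libraries of the opposite group, so the numbers were taken to pair the libraries. P-values of the unpaired model measure the spread between libraries of a group. Those of the paired model measure the spread of the Cre minus GFP differences between numbers. Between replicates, chi-square per degree of freedom was at least 20.8, so no library repeated another. Members and lists were chosen with earlier results of these data known. Any member could be named, with values for the 2 most abundant of each class, the largest changes and members that went against their class in 4 of 4 pairs, and from each other list for up to 4 genes with the smallest paired p, plus Slbp and Npat. Copies were found with blastn 2.17.0 against GENCODE M21 transcripts, where all 36 members had the coordinates of the deposited table. Reads are not independent molecules.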

Additional observations from a re-analysis of the deposited data

How the results depend on the processing

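The unpaired model called 0 members higher and 0 lower under every alternative of it that was run (pseudocounts, filters, voom, scalings and each library left out), and the replicate block called 7 higher and 0 lower. On simulated data the unpaired model recovered 0% of genes changed 1.5-fold, so 0 calls in it say little about changes of that size. Within the paired model the count higher was 3 with a filter of 5 CPM, under which only 4 members were tested, 3 leaving out near-identical copies, and 4 to 7 without each pair in turn, and 5 to 7 otherwise. Among the fits without a pair it was lowest without pair 3, where Hist1h1e, Hist1h2ac and Hist1h2al lost their calls. Hist1h1c, Hist3h2a, Hist1h2bc and Hist2h3c2 kept theirs in every paired alternative that tested them. Over all genes, the unpaired model called 108 higher and 32 lower, the block 2861 and 2804, a filter of 5 CPM 58 higher, and leaving out a library 0 to 51 higher and 1 to 7 lower, with fewer samples in each fit.

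Against 0 calls without pairing in each list, the block called 10 processing genes lower (12 with voom and the block), 2 variant genes higher and 5 lower (2 and 5), 13 chaperone genes lower (13) and 25 S phase genes lower (25). Leaving out near-identical copies moved the log2 ratio of the H2B sum to -0.07 and of the H3 sum to 0.80, by dropping Hist1h2bc and all H3 genes except Hist2h3c2. The class ratios moved by less than the spread between pairs when the deposited scaling was kept. They also did so when any pair was left out, but a mean of 4 pairs cannot move by more than their spread. Leaving out a pair thus does not test how stable the ratios are. Low reads limit the 24 untested members. Groups of 4 libraries were checked with Dixon's test for a library that stands apart. On values without logs, none passed its limit among the 12 tested members and the class sums. The outcome depends on the scale. On log2(value + 1), the scale of the fits, Cre 4 of Hist1h3d and GFP 4 of Hist1h2al lie past the limit. With 4 libraries this test can miss such a library, so its result does not show that no other library stands apart. Number 4 had the lowest pair mean for 12 of 12 tested members. Hist1h3d had 9 reads in Cre 4 against 42 to 54 in the other Cre libraries. Hist1h2al had 2 in GFP 4 against 21 to 29 in the other GFP libraries.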
